A study of Mus musculus with 28 samples.

Results

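The effect of age on stimulated CD8 T cells was measured on 8 of the 28 arrays of the series, 4 of cells from old mice and 4 of cells from young mice. All mice were BALB/c, aged 20 months (old) or 4 months (young). Sorted CD8 cells were kept for 4, 12, 24 or 72 h on plates coated with antibodies to CD3 and CD28, which engage the antigen receptor and its costimulatory receptor, and each age had 1 array at each time. The 8 arrays were chosen by the labels for cell type, age and time, and old was set against young at each time, which gave 4 pairs. RNA of a time point came from 4 sortings pooled before hybridisation, so an array carries no spread between animals. The test asks whether the mean difference of the 4 pairs exceeds its spread over the 4 times, and a difference present at 1 time only is not what it looks for. The gate is uncertain, because titles and sorting protocol call the cells high in CD44 while descriptions and design text call them naive and low in CD44. Resting CD8 cells, with 3 arrays per age, and stimulated CD4 cells, with 8 arrays, are used only for comparison.

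CD8 T cells are the killer cells of adaptive immunity. Once their antigen receptor is engaged they leave rest, divide, and turn on granule proteases, death ligands and cytokines, with interferon gamma foremost among the latter. In old mice the CD8 population is known to hold fewer naive cells and more cells that resemble antigen-experienced ones.

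Each level below is log2 of the background-corrected intensity of a gene's probe minus log2 of the 75th percentile of its array, so that 0 marks a probe at that percentile. Levels of different genes come from different probes and are not compared. Between 17911 and 24166 probes were well above background per array. The old 72 h array had the 17911, and the other 7 had 21692 or more. The deposited value matrix holds the same scans under other times: at both ages the scans labelled 4, 12 and 24 h match the matrix columns of 24, 4 and 12 h (r of 0.998 or more over probes), and the 72 h scans match their own. Times below follow the scan files, and differences over the 4 pairs do not depend on that order, whereas those at a single time do. Old cells always lay at the first position of a slide and young cells at the second, so that position and age cannot be told apart. The pairs at 4, 24 and 72 h each shared a slide, and the 12 h pair was on separate slides read on different days. The 8 arrays carried all 8 markers of CD8 T cells above background, with a summed log2 level of 9.33 to 9.58 in old and 9.16 to 9.55 in young cells. Cd8a lay between 5.63 and 6.62 in old and between 5.24 and 6.92 in young cells. Of 18 B cell markers, 4 were above background on all 8 arrays (Cd79b, Cd72, Cd74 and H2-Ab1), and Pax5 and Ebf1 on none. Of 18 myeloid markers, 4 were on all 8 (Cd68, Ctss, Tyrobp and C1qb), and Itgam, C1qa and Csf3r on none. The summed level of 18 B cell markers was 2.02 to 4.04 in old and 2.07 to 3.69 in young cells, and that of 18 myeloid markers 3.74 to 6.69 against 4.06 to 5.25. Such sums rest on few bright genes: H2-Ab1 alone stood at -0.49 to 2.57 and -0.02 to 3.28, and Ctss at 3.63 to 4.85 and 3.97 to 4.98. Among B cell markers Cd22 (above background on 3 of 8 arrays) and Blnk (6 of 8) were higher in old cells in every pair. Cd72 was so in every pair with both values, and none was lower in every pair. The summed myeloid level was highest at 4 h at both ages (6.69 and 5.25), and in that pair the neutrophil and monocyte genes differed: S100a9 stood at 5.87 in old and 0.98 in young cells, S100a8 at 2.21 and -3.11, and Lyz2 at 2.74 and -0.13. At rest the summed B cell level was 5.08 to 6.13 in old and 4.35 to 4.76 in young cells, and the myeloid level 7.18 to 7.98 and 6.04 to 6.78, with no overlap of the ages. The part of these cells in the differences below was not tested.

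Age left a difference over the 4 times in 148 of 15215 genes tested (0.973%) by limma at a Benjamini-Hochberg adjusted p under 0.05, 108 higher (0.710%) and 40 lower (0.263%) in old cells, with 2222 at an unadjusted p under 0.05. Each of the 148 had the same sign in all 4 pairs, which the test itself favours. Of all genes with complete values 11.4% were higher and 14.2% lower in all 4. For 75 of the higher and 22 of the lower genes the arrays of the 2 ages did not overlap, as for 1.90% and 2.40% of all genes with complete values. The genes were called on these same differences, so neither count is separate support. The number of calls rested on single pairs: it was 2 without the 4 h pair (Dnah17 and Mela), 4 without the 24 h pair (these 2, Lrrk1 and Penk), 67 without the 12 h pair and 58 without the 72 h pair. Of the 108 higher genes 71 (65.7%) were also called higher at rest, which is 22.5% of the 316 called there (2.08% of all genes). Of the 40 lower genes 12 (30%) were called lower at rest, which is 15.6% of 77 (0.506%). The resting calls come from a fit of 14 CD8 arrays that includes the stimulated ones. A gene with a small spread over the pairs is thereby favoured in both calls, so this overlap is not separate support. Of the 104 higher genes with values in stimulated CD4 cells, 60 were higher in old cells in all 4 CD4 pairs (57.7%, against 8.67% of all genes), and 15 of 38 lower genes were lower in all 4 (39.5% against 6.17%). In RNA of sorted cells, more cells that carry a transcript and more transcript per cell cannot be told apart.

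Interferon-response genes, which cells switch on when interferon binds its receptor and which hold back viruses, had a median below 0 in old minus young cells at every time. Of 57 genes with values on all 8 arrays, 31 were lower in old cells in all 4 pairs and 3 were higher, whereas 14.2% and 11.4% of all 14848 genes with complete values were. The median difference of the list was -0.57 on the log2 scale, against -0.04 for all genes kept. Past the threshold of limma (Benjamini-Hochberg adjusted p under 0.05) were 4 lower members, Ifit1, Ifit3, Isg15 and Zbp1, and 1 higher member, Oas1a. Over all genes 0.263% were called lower and 0.710% higher. None of the 4 lower calls was made without the 4, 12, 24 or 72 h pair, each left out in turn, and the median of the list was then -0.69 to -0.51.

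The promoters of 4 of these 5 genes are in the RefSeq table used here (build GRCm38.p6), and they are shown because all 4 hold a short sequence motif. Each line gives the 180 bases before the annotated start of the gene, read 5′ to 3′ along the gene's strand, with matches to GAAA, any 2 bases and GAAA, or the same on the other strand (TTTC, any 2 bases, TTTC), in capitals. The letters are those of the elements that interferon-activated factors are known to bind. Ifit1 is on chr19:34640709-34640888 (plus strand), Ifit3 on chr19:34583349-34583528 (plus), Isg15 on chr4:156200819-156200998 (minus) and Oas1a on chr5:120907526-120907705 (minus).
Ifit1: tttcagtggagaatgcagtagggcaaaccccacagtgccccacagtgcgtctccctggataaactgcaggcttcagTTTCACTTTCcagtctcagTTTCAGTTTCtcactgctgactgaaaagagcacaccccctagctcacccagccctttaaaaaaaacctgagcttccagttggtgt
Ifit3: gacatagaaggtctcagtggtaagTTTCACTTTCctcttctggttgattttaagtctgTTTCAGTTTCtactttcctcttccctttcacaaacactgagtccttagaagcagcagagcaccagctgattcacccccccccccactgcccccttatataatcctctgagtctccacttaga
Isg15: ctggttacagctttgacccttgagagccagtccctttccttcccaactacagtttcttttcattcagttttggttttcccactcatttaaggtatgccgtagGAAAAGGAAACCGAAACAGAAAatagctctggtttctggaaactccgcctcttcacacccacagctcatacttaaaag
Oas1a: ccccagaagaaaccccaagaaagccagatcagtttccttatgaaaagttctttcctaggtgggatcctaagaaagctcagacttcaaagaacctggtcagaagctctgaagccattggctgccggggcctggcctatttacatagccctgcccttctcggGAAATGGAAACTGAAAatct
The motif occurred 2 times in Ifit1, Ifit3 and Oas1a and 3 times in Isg15, with matches that overlap in Isg15 and Oas1a. Among all 32851 promoters given there, 2.01% held it in the same window, and 2.34% of all 27025 genes had such a promoter. Of the 40 interferon members with an entry 18 held it: 11 of the 23 that were lower in all 4 pairs and 7 of the other 17. The lower members shown and Oas1a thus had the motif alike, whereas the other lower members held it only in part. A match does not show that a factor binds.

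Ifit1 and Ifit3 encode proteins that bind foreign RNA and block its translation. Ifit1 stood at -0.50, -2.08, -2.78 and -4.16 in old cells at 4, 12, 24 and 72 h and at 1.61, 0.16, -1.20 and -1.06 in young cells. The level was lower in the old cells of every pair, although the 2 ages overlap across times, and 1 of the 4 old arrays was not above background. Ifit1 fell 4.78-fold (log2 -2.26 ± 0.28 SE, n = 4 pairs, adjusted p = 0.0296 by limma). Ifit3 stood at 0.07, -0.39, -1.16 and -2.61 in old cells and at 2.17, 1.80, 0.24 and -0.04 in young cells. It fell 4.19-fold (-2.07 ± 0.24, adjusted p = 0.0257). Isg15, a ubiquitin-like protein that is attached to other proteins, stood at 1.64, -0.26, -0.18 and -0.90 in old and at 3.07, 2.16, 1.05 and 1.21 in young cells. It fell 3.47-fold (-1.80 ± 0.26, adjusted p = 0.0447). Zbp1, a sensor of Z-form nucleic acid, lay below the young arrays on each old array, at 2.30 to 3.07 against 3.56 to 4.36, with a difference at the edge of the threshold (-1.34 ± 0.20, adjusted p = 0.04999).

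Oas1a, which makes the second messenger that activates RNase L, was the exception. It stood at -0.22, -1.47, -1.36 and -2.07 in old cells and at -2.14, -2.63, -3.15 and -3.66 in young cells, with no overlap of the ages. It rose 3.06-fold (1.61 ± 0.20, adjusted p = 0.0318). Of the other members higher in all 4 pairs, the GTPase gene Gbp3 (0.47, adjusted p = 0.37) and Slfn3 (0.53, adjusted p = 0.34) missed the threshold. The remaining 27 members lower in all 4 pairs missed it too.

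The median of the interferon list was below 0 at each time. It was -0.40 at 4 h, -0.73 at 12 h, -0.66 at 24 h and -0.35 at 72 h. Of its 58 members 10, 6, 10 and 18 were higher in old cells at these times. Of all genes kept 6465 of 15211, 7488 of 14991, 7914 of 15147 and 7657 of 15140 were. In resting cells, where B cell and myeloid markers were also higher in old cells, the list's median was 0.33, with 7 members called higher and none lower. Over all genes 2.08% were called higher and 0.506% lower at rest. The change from rest to stimulation was tested directly for each gene and no member passed: Ifit3 changed by -3.15 ± 0.41 (adjusted p = 0.0613 by limma) and Isg15 by -2.62 ± 0.46 (adjusted p = 0.0943). In stimulated CD4 cells the median of the list was -0.02. The list's median stayed negative under the other scalings, at -0.55 with quantile normalization, -0.33 with normexp background correction and -0.28 with scaling to the median of each array. With normexp no member was called, Oas1a included. With quantile normalization, with flagged spots kept and with the mean over a gene's probes, Ifit1, Ifit3 and Oas1a were called and Isg15 and Zbp1 were not. Scaling to the median moves the median of all genes from -0.04 to 0.24, and at 12 h from -0.00 to 1.07. It leaves 16 of 57 members lower in all 4 pairs, beside 954 of all 14848 genes with complete values, where 2101 were lower before it. It also turns the list's 12 h median to 0.33, which is still below that of all genes.

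**Figure D1:**
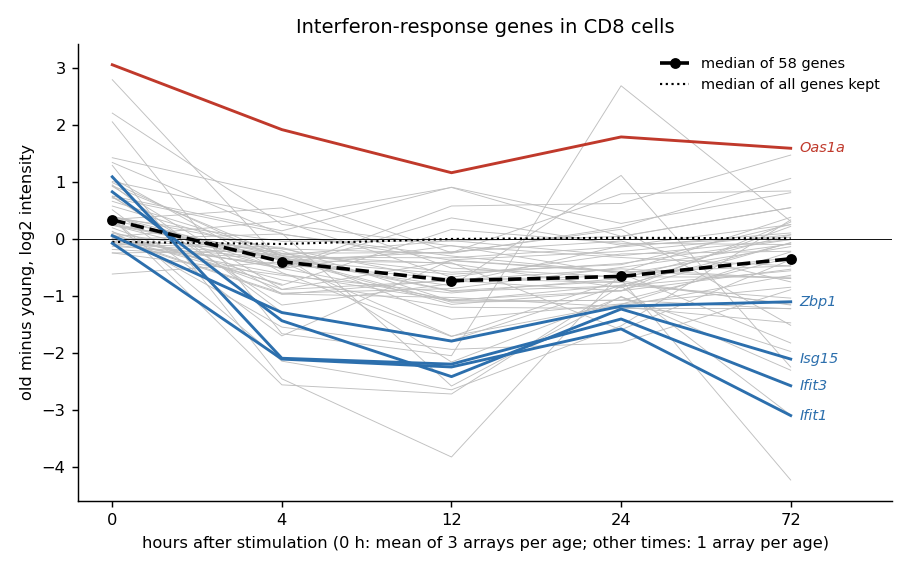
Old minus young difference (log2 intensity) of each interferon-response gene at 0, 4, 12, 24 and 72 h, with called genes in colour, other members in grey, the list's median dashed and that of all genes dotted. The median goes from 0.33 at 0 h to values between -0.73 and -0.35 after stimulation, while Oas1a stays above 0 throughout.

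Cytokine genes leaned the other way. Of 23 measured, 9 (39.1%) were higher in old cells in all 4 pairs and none lower, against 11.4% and 14.2% of all genes. Limma called 3 higher, Il4, Il9 and Penk, where 0.710% of all genes were called higher. The median of the list was 0.64, and it was between 0.39 and 0.93 under the other scalings, where that of all genes kept was between -0.04 and 0.24. Without 1 pair the list's median was 0.46 (4 h), 0.59 (12 h), 0.29 (24 h) or 0.38 (72 h), with 0, 2, 1 and 5 members called. Il4, the signature cytokine of type 2 responses, stood at 2.06, 0.98, 0.30 and -0.25 in old cells and at -0.64, -2.79, -3.48 and -6.81 in young cells. The ages did not overlap, and the lowest old level lay above the highest young one. Il4 rose 18.4-fold (4.20 ± 0.60, n = 4 pairs, adjusted p = 0.0445 by limma), a fold that is not exact because the young 72 h array was not above background. Il9, a growth factor of mast cells that type 2 cells also make, stood at -2.19, -1.64, -0.95 and -2.25 in old and at -5.24, -5.69, -4.87 and -7.30 in young cells. It rose 16.2-fold (4.02 ± 0.33, adjusted p = 0.0121), a fold that is not exact since 1 of 4 young arrays was above background. At rest Il4 differed by 1.38 ± 0.57 (adjusted p = 0.324) and Il9 by 0.18 ± 0.41 (adjusted p = 0.909).

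A transcription factor, receptors and a chemokine were called in the same direction. Gata3, the transcription factor that directs type 2 differentiation, stood at 3.56, 3.02, 2.97 and 3.80 in old cells and at 2.20, 1.01, 0.89 and 1.95 in young cells. Its arrays did not overlap, and Gata3 rose 3.55-fold (1.83 ± 0.20, adjusted p = 0.0237 by limma) after a difference of 0.16 ± 0.28 at rest. Il1rl1, the receptor for the alarmin IL-33, stood at -1.63 to -0.40 in old and at -3.67 to -3.01 in young cells and rose 4.73-fold (2.24 ± 0.27, adjusted p = 0.028). Il18r1, the receptor gene of IL-18 and the neighbour of Il1rl1 on chromosome 1, rose 3.06-fold (1.61 ± 0.18, adjusted p = 0.0223). Ccl1, a chemokine for cells that carry CCR8, stood at 1.62, 2.41, 2.72 and 2.03 in old and at -1.72, -1.02, -2.98 and -4.45 in young cells, and rose 26.7-fold (4.74 ± 0.58, adjusted p = 0.0296). At rest Ccl1 lay between -7.15 and -6.07 on all 6 arrays of both ages. The type 2 cytokine gene Il13, which the naming rule does not pick and which was chosen after its values were seen, differed by 0.02 (adjusted p = 0.981), with 2 pairs in each direction.

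**Figure D2:**
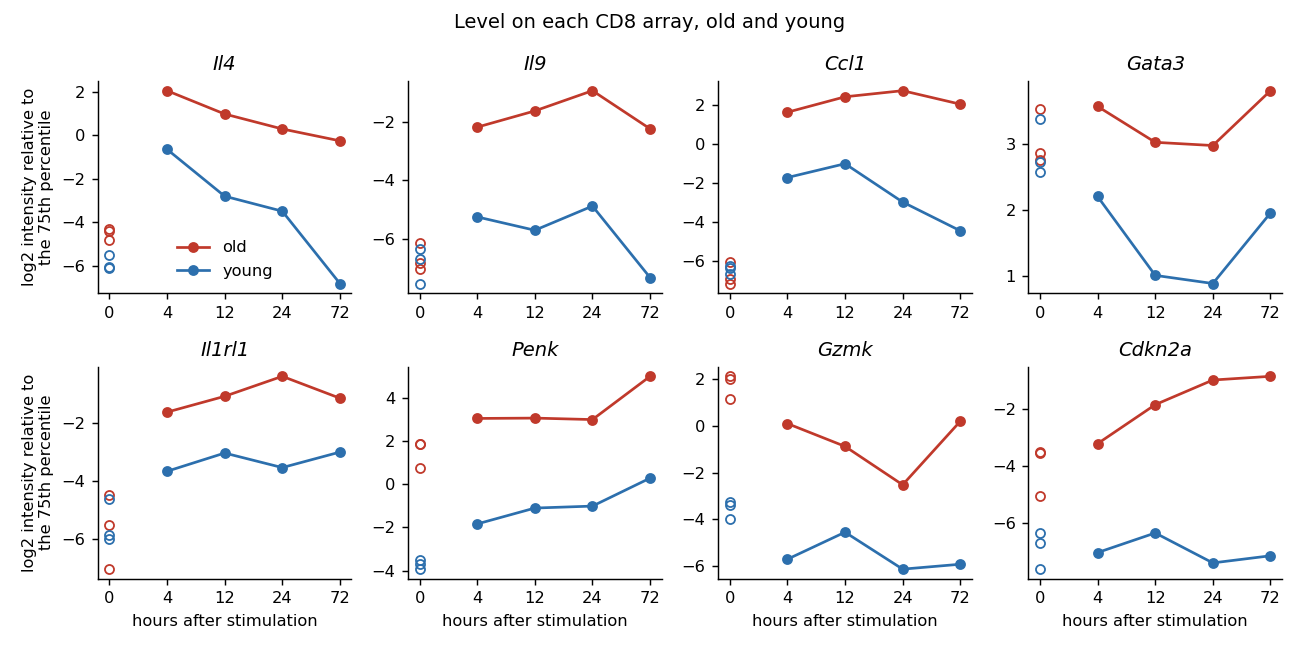
Level (log2 intensity relative to the 75th percentile of the array) of 8 called genes on each CD8 array, old in red and young in blue, against hours after stimulation; open points at 0 h are 3 resting arrays per age. For all 8 the old arrays lie above the young ones at 4, 12, 24 and 72 h, and for Il9, Ccl1, Gata3 and Il1rl1 the resting arrays of the 2 ages overlap.

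These genes are also known in CD4 helper cells, so markers of that lineage were read on the same arrays. Cd4 itself stood at -3.58, -4.62, -3.78 and -4.69 in old and at -3.42, -3.36, -3.72 and -3.76 in young cells, lower in the old cells of every pair (-0.60 ± 0.27, adjusted p = 0.363). Zbtb7b, the regulator of helper lineage choice, was 1.57, 1.67 and 0.67 higher in old cells at 4, 12 and 24 h and differed by -1.19 at 72 h (mean 0.68, adjusted p = 0.525 by limma). At rest it was called higher in old cells (2.21 ± 0.45, adjusted p = 0.0358). Cd40lg was above background on 1 of 8 arrays, that of old cells at 4 h (-4.30, against -6.98 in young cells), and Foxp3 on 2. Trat1 was above it on all 8, at -2.32 to -0.39 in old and -2.14 to 0.03 in young cells. The summed level of the 7 helper markers, Il1rl1 among them, was 4.29 to 5.74 in old and 3.89 to 6.35 in young cells, most of it from Tnfrsf4, which alone stood at 4.17 to 5.68 and 3.75 to 6.27. For innate-like T cells, 4 markers were on the array and none passed the filter on dim genes, with a summed level of -4.96 to -2.94 in old and -4.91 to -3.40 in young cells. In stimulated CD4 cells the mean old minus young difference was 4.57 for Il4, 3.39 for Il9, 3.23 for Ccl1, 2.19 for Gata3 and 3.22 for Il1rl1. The test of CD8 against CD4 gave adjusted p = 0.994 for each of these 5 genes.

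Penk, the precursor of the enkephalin peptides, was already apart at rest. It stood at 3.04, 3.06, 2.99 and 4.99 in old and at -1.84, -1.11, -1.02 and 0.28 in young cells, a 21.7-fold difference (4.44 ± 0.22, adjusted p = 0.00316 by limma) beside 5.19 ± 0.31 at rest. The cytokine gene Il10 (2.03 ± 0.35, adjusted p = 0.0708) missed the threshold, with higher levels on all 4 old arrays. A pair of main T cell cytokines, chosen like Il13 after their values were seen, also missed it. Ifng stood at 8.12 to 8.82 in old and at 7.37 to 7.70 in young cells (0.88 ± 0.19, adjusted p = 0.131). Il2 stood at 1.24, -1.16, -2.0 and -5.45 in old and at -0.82, -2.67, -3.38 and -4.38 in young cells, higher in old cells at 4, 12 and 24 h and lower at 72 h (0.97 ± 0.51, adjusted p = 0.414).

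Among genes of killing, a few granule and death ligand genes stood higher in old cells. Of 18 measured, limma called Gzmk, Gzmm and Fasl higher and none lower, where it called 0.710% and 0.263% of all genes. In all 4 pairs 5 (27.8%) were higher and 2 (11.1%) lower, against 11.4% and 14.2% of all genes. The median of the list was 0.07. Gzmk, a granzyme typical of memory cells, stood at 0.10, -0.88, -2.52 and 0.20 in old cells and was above background on no young array. Its rise was at least 17.4-fold (measured difference 4.80 ± 0.50, adjusted p = 0.0193). Gzmm, a granzyme shared with natural killer cells, stood at 3.57, 1.28, 0.58 and 1.95 in old and at -0.03, -1.16, -1.65 and -1.15 in young cells and rose 7.15-fold (2.84 ± 0.28, adjusted p = 0.0151). Fasl, the death ligand, stood at 2.78, 2.11, 1.73 and 3.36 against -0.08, -0.60, -0.32 and 2.06 and rose 4.70-fold (2.23 ± 0.30, adjusted p = 0.0373). The summed level of 7 natural killer cell markers was 2.52 to 3.43 in old and 1.69 to 3.66 in young cells. This sum rests mostly on Eomes, which alone stood at 2.41 to 3.16 in old cells and at up to 3.56 in young cells. In old cells at 72 h it rests on Gzma (2.33) as well, so it says little on the other markers. Among these Klre1 (above background on 3 arrays) was higher in old cells in every pair, and Klrb1c (on 5) was lower.

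Gzmb and Prf1, the main granzyme and the pore-former, did not pass the test in stimulated cells. Gzmb stood at 4.33, 6.33, 7.68 and 8.53 in old and at 5.23, 7.08, 7.87 and 8.65 in young cells (-0.49 ± 0.22, adjusted p = 0.367), so that its level climbed with time at both ages. At rest Gzmb was 4.26 ± 0.54 higher in old cells (adjusted p = 0.00291). Prf1 differed by -0.49 ± 0.27 (adjusted p = 0.422), and Gzmc, another granzyme, by 1.80 ± 0.44 (adjusted p = 0.172).

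Genes of antigen-experienced cells were counted next. Of 30 memory and effector genes, 13 (43.3%) were higher in old cells in all 4 pairs and 3 (10%) lower, against 11.4% and 14.2% of all genes. The list's median was 0.43 after stimulation and 1.70 at rest. Limma called 5 higher after stimulation and 15 at rest, and none lower, while over all genes it called 108 and 316. The resting values come from another fit, with more arrays, which includes the stimulated ones. The resting and stimulated calls thus share part of their spread, and their counts are not independent. Beside Gzmk and Fasl the 5 were S100a6, Ccl5 and Ctla2b. S100a6, a calcium-binding protein, stood at 2.97, 2.53, 3.44 and 6.74 in old and at -0.33, -0.66, 0.14 and 3.85 in young cells and rose 9.0-fold (3.17 ± 0.18, adjusted p = 0.00547). Ccl5, a chemokine stored by memory CD8 cells, rose 6.13-fold (2.62 ± 0.34, adjusted p = 0.0351), and Ctla2b, an inhibitor of cysteine proteases, 3.51-fold (1.81 ± 0.24, adjusted p = 0.0351). Ccr2, a receptor that guides cells to inflamed tissue, rose 5.12-fold (2.35 ± 0.19, adjusted p = 0.0121), and Cxcr3, which does the same for T cells, stood at 1.14 ± 0.23 (adjusted p = 0.105).

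Inhibitory receptors split. Of 16 genes, 5 (31.25%) were higher and 6 (37.5%) lower in old cells in all 4 pairs, against 11.4% and 14.2% of all genes. Havcr2, which encodes TIM-3, stood at 0.76, 0.20, -0.74 and 3.51 in old and at -1.64, -2.84, -3.33 and 1.91 in young cells and rose 5.30-fold (2.41 ± 0.27, adjusted p = 0.0240 by limma). Entpd1, the ectoenzyme CD39, rose 5.27-fold (2.40 ± 0.25, adjusted p = 0.0187). Lag3 and Pdcd1, whose products restrain activated T cells, lay lower in the old cells of every pair without passing the threshold. Lag3 stood at -1.10, 1.96, 1.73 and 2.32 in old and at 0.86, 3.05, 2.72 and 3.18 in young cells (-1.22 ± 0.24, adjusted p = 0.105), after 3.26 ± 0.50 at rest. Pdcd1 differed by -0.62 ± 0.23 (adjusted p = 0.31), after 2.18 ± 0.31 at rest. The ligand gene Cd200 (-1.84 ± 0.33, adjusted p = 0.0798) and the receptor genes Lair1 (1.85 ± 0.38, adjusted p = 0.117) and Lilrb4a (2.89 ± 0.61, adjusted p = 0.125) also missed it.

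**Figure D3:**
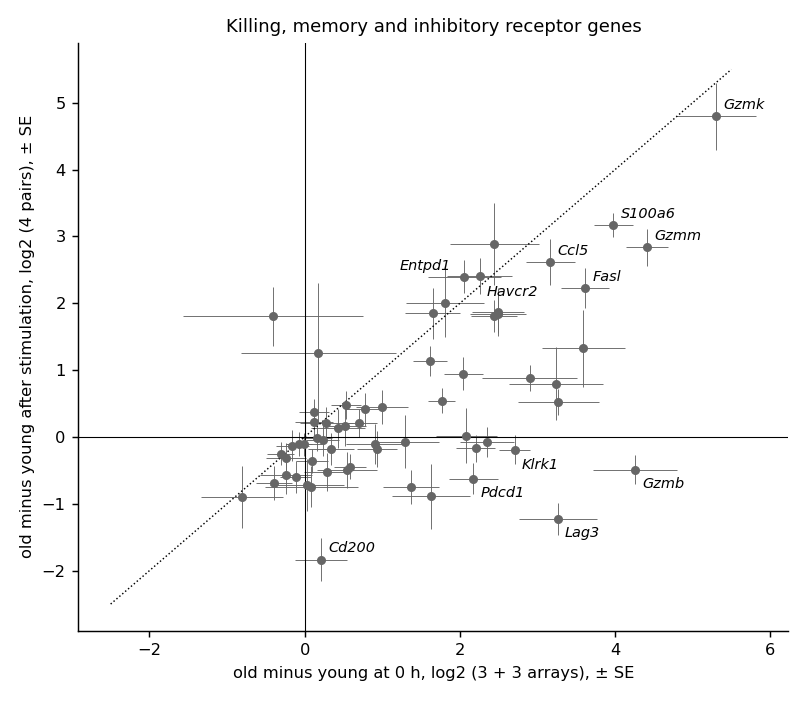
Old minus young difference after stimulation (mean of 4 pairs, log2) against that at 0 h (3 arrays per age, log2) for genes of killing, memory and inhibitory receptors; bars are standard errors and the dotted line marks equal differences. Gzmk, Gzmm, S100a6, Ccl5 and Fasl are high on both axes, whereas Gzmb, Lag3, Pdcd1 and Klrk1 are above 2 at rest and below 0 after stimulation.

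The change of the age difference from rest to stimulation was tested for all genes, and limma called 2 of 15215 (0.0131%), both lower, with 1563 at an unadjusted p under 0.05. Klrk1, the activating receptor NKG2D, was 2.71 ± 0.20 higher in old cells at rest. After stimulation it stood at -0.93, -0.55, 0.23 and 0.58 in old and at -1.26, -0.44, 0.55 and 1.24 in young cells (-0.19 ± 0.22), a change of -2.90 ± 0.26 (adjusted p = 0.0120). Asns, which makes asparagine, was 3.63 ± 0.22 higher in old cells at rest. After stimulation it stood at 6.35, 7.58, 7.47 and 7.11 in old and at 5.73, 6.39, 7.16 and 7.18 in young cells (0.52 ± 0.25), a change of -3.11 ± 0.30 (adjusted p = 0.0120). Gzmb (-4.75 ± 0.71), Lag3 (-4.49 ± 0.66) and Pdcd1 (-2.80 ± 0.42) had adjusted p = 0.0613 each. Leaving out the 24 h pair ended both calls (no gene called), and with the replicate number of the resting arrays as a block no gene was called (adjusted p = 0.0838 for Klrk1 and Asns). Without the third resting array of old cells there were 77 calls, and without the first of young cells 40. Without the 4 h pair there were 58 and without the 72 h pair 4, and without any other resting array none. The third resting array of old cells and the first of young cells shared a slide. The other resting arrays lay on another slide, read on another day, and the part of that in these counts was not tested.

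The cell cycle inhibitors of the Cdkn2 locus were among the largest differences. Cdkn2a, which encodes p16 and p19ARF, stood at -3.23, -1.86, -1.0 and -0.87 in old cells and was above background on no young array. It rose at least 8.93-fold (measured difference 5.25 ± 0.48, n = 4 pairs, adjusted p = 0.0136 by limma), beside 2.85 ± 0.60 at rest. Its neighbour on chromosome 4, Cdkn2b, which encodes p15, stood at -1.77, 0.01, -0.06 and 1.07 in old and at -4.74, -4.59, -5.48 and -3.10 in young cells. Cdkn2b rose 19.6-fold (4.29 ± 0.40, adjusted p = 0.0136), a fold that is not exact since 2 of 4 young arrays were above background. Of 28 p53 targets and cell cycle inhibitors these 2 alone were called, and the list's median was -0.00. Cdkn1b, which encodes p27, differed by -0.66 ± 0.20 (adjusted p = 0.249).

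Genes that carry out division were measured beside these inhibitors. At 4 h 14 of 45 mitosis genes were higher in old cells, at 12 h 39, at 24 h 38 and at 72 h all 45, with medians of -0.28, 0.63, 0.32 and 1.71. Of 53 DNA replication genes 10 were higher at 4 h, 46 at 12 h, 29 at 24 h and 53 at 72 h, with medians of -0.38, 0.66, 0.02 and 1.08. Of all genes kept 6465 of 15211 were higher at 4 h, 7488 of 14991 at 12 h, 7914 of 15147 at 24 h and 7657 of 15140 at 72 h. Scaling to the array median moved the mitosis medians to -0.48, 1.69, 0.39 and 1.92. It moved those of all genes with complete values to -0.28, 1.07, 0.09 and 0.22. No member of either list was called over the 4 times, and no gene of any kind passed the test of a trend with time (1095 of 15215 at an unadjusted p under 0.05 by limma). Mad2l1, which guards chromosome attachment, stood at -1.28, 1.81, 2.90 and 2.99 in old and at -1.69, -0.11, 2.36 and 1.22 in young cells (1.16 ± 0.32, adjusted p = 0.214). Ccne2, the cyclin of S phase entry, differed by 1.67 ± 0.51 (adjusted p = 0.249). The 72 h values rest on the old array with the fewest probes above background, and the part of that in the result was not tested.

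Genes of glycolysis gave no call. Of 25 measured 10 (40%) were lower in all 4 pairs and none higher, against 14.2% and 11.4% of all genes, and the list's median was -0.33. With quantile normalization 7 were lower in all 4 pairs, beside 1918 of all 14848 genes with complete values. With scaling to the array median 2 were, beside 954 of 14848. The list's median was -0.15 and -0.04 under these scalings, against -0.00 and 0.24 for all genes kept. After normexp correction it was 0.00, against -0.04 for all genes kept, so how far the list leaned depended on these choices. Pkm, pyruvate kinase, stood at 3.75, 4.97, 5.81 and 5.86 in old and at 4.47, 5.84, 6.38 and 6.84 in young cells (-0.78 ± 0.18, adjusted p = 0.145). Tpi1 (-0.86 ± 0.18, adjusted p = 0.123), Pgk1 (-0.70 ± 0.19, adjusted p = 0.214) and the oxygen sensor gene Egln3 (-2.02 ± 0.34, adjusted p = 0.0706) were similar. In the list of amino acid supply and stress genes Ddit4, an inhibitor of mTORC1, fell 3.32-fold (-1.73 ± 0.24, adjusted p = 0.0432), from 4.91, 5.88, 6.65 and 8.06 in young cells to 3.68, 4.37, 4.84 and 5.67 in old cells.

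Several genes of naive and resting T cells were measured as well. Il7r, the receptor for IL-7, stood above the young arrays on every old array, at 2.45 to 4.12 against 0.74 to 2.10 (1.65 ± 0.26, adjusted p = 0.0572), and Il12rb2 (-1.27 ± 0.19, adjusted p = 0.0522) also missed the threshold. Of 22 naive T cell genes 7 (31.8%) were lower in all 4 pairs and 1 (4.55%) higher, against 14.2% and 11.4% of all genes. None of the 22 was called, and the list's median was -0.30, against -0.04 for all genes kept. With scaling to the array median these were -0.01 and 0.24. Ccr7, which guides naive cells to lymph nodes, stood at 3.19 to 4.97 in old and at 5.01 to 6.04 in young cells (-1.18 ± 0.26, adjusted p = 0.133). Of 35 genes of antigen receptor signalling none was called and the median was 0.03, with Themis at 0.73 ± 0.20 (adjusted p = 0.204) and Nfatc3 at 0.58 ± 0.17 (adjusted p = 0.235). Of 29 early activation genes none was called, and 2 (6.90%) were lower and none higher in all 4 pairs, against 14.2% and 11.4% of all genes. Irf4 differed by -0.65 ± 0.25 (adjusted p = 0.323).

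Among transcription factors of CD8 differentiation limma called Gata3 and Hopx higher and Ikzf2 lower, of 25, where it called 0.710% and 0.263% of all genes. In all 4 pairs 5 (20.8%) were higher and 4 (16.7%) lower, against 11.4% and 14.2% of all genes. Hopx, a marker of long-lived effector cells, stood at -0.22, 0.41, -0.36 and 0.99 in old and at -3.53, -2.70, -3.33 and -0.92 in young cells and rose 7.10-fold (2.83 ± 0.28, adjusted p = 0.0151). Ikzf2, which encodes Helios, stood at -1.54, -2.99, -3.42 and -2.47 in old and at 1.47, -0.23, -0.38 and -0.38 in young cells and fell 6.61-fold (-2.73 ± 0.23, adjusted p = 0.0121). Both sets of arrays were apart with no overlap. Prdm1 (1.58 ± 0.36, adjusted p = 0.142), Batf3 (1.55 ± 0.30, adjusted p = 0.0983) and Id3 (-1.18 ± 0.37, adjusted p = 0.252) missed the threshold. Casp1, the inflammatory caspase, stood at 2.08, 1.31, 1.42 and 2.62 in old and at -1.15, -1.81, -1.75 and 0.92 in young cells and rose 7.0-fold (2.81 ± 0.31, adjusted p = 0.0225). Casp4, its partner in the response to bacterial lipid, stood at 2.42 ± 0.46 (adjusted p = 0.0918).

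**Figure D4:**
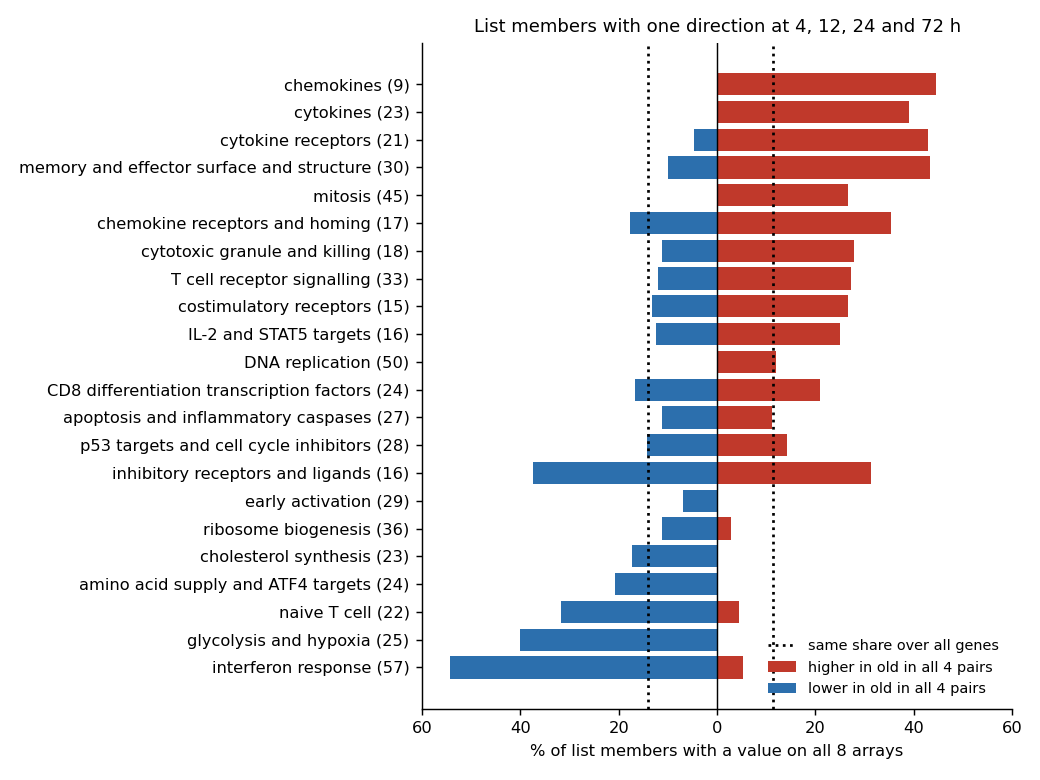
Share (%) of members of each gene list that were higher (right, red) or lower (left, blue) in old cells in all 4 pairs, with the number of members that have a value on all 8 arrays in brackets; dotted lines give the shares over all genes, 11.4% and 14.2%. Interferon-response and glycolysis genes reach furthest to the left, and chemokine, memory, cytokine receptor and cytokine genes to the right.

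Several of the largest differences were present at every time, at rest and in CD4 cells. Pla2g5, a secreted phospholipase, stood at 0.48, 0.26, -0.71 and -0.43 in old and at -6.15, -6.34, -7.32 and -3.92 in young cells, 57.0-fold apart (5.83 ± 0.57, adjusted p = 0.0151) with 1 of 4 young arrays above background, so that the fold is not exact. The deubiquitinase gene Otud3, with 2 genes between it and Pla2g5 on chromosome 4, went the other way, at -2.10, -3.71, -2.71 and -1.23 in old and 2.35, 2.87, 1.96 and 2.70 in young cells (29.9-fold lower, -4.90 ± 0.44, adjusted p = 0.0134). At rest these differed by 8.12 and -4.70, and in stimulated CD4 cells by a mean of 7.01 and -4.27. Mela, a gene of retroviral origin that the naming rule does not pick and that is given after its values were seen, was the largest difference of all. It stood at 4.67 to 6.01 in old cells, was above background on no young array, and was at least 1286-fold higher (adjusted p = 5.86e-05). At rest Mela differed by 12.50.

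Other large rises included Dnah17, a dynein heavy chain (24.6-fold, 4.62 ± 0.18, adjusted p = 0.00117 by limma), Prkar2a, a regulatory subunit of protein kinase A (23.1-fold), the kinase gene Lrrk1 (19.2-fold) and Dact2, a modulator of Wnt and TGF-beta signalling (at least 6.39-fold). Dnah17 lay at -0.48 to 1.12 in old and at -5.29 to -3.33 in young cells, and its 4 differences ranged from 4.45 to 4.81, with 2 of 4 young arrays above background. For Prkar2a 3 of 4 young arrays were, so that neither fold is exact. Among lower genes with a symbol, large falls beside Otud3 and Ikzf2 were those of Ptprf, a receptor tyrosine phosphatase (10.5-fold), Acads, which oxidises short-chain fatty acids (9.65-fold), and Kit, the stem cell factor receptor (9.11-fold). Kit stood at -2.34, -5.36, -6.46 and -5.36 in old and at 0.13, -2.46, -2.93 and -1.51 in young cells, with 1 of 4 old arrays above background, after a difference of 0.18 ± 0.46 at rest. A transcript without a gene symbol, above background on no old array, had the largest measured fall of all called (-6.67). Plxdc2 (7.52-fold), Spin4 (6.79-fold), the matrix protease gene Mmp14 (6.61-fold), Slc16a10, an aromatic amino acid transporter (6.07-fold), Prickle1 (5.72-fold) and Gucy1a1, a subunit of the nitric oxide receptor (4.91-fold), were lower as well. Plxdc2 was above background on 1 old array, Mmp14 on 2 and Gucy1a1 on 3, so their folds are not exact.

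**Figure D5:**
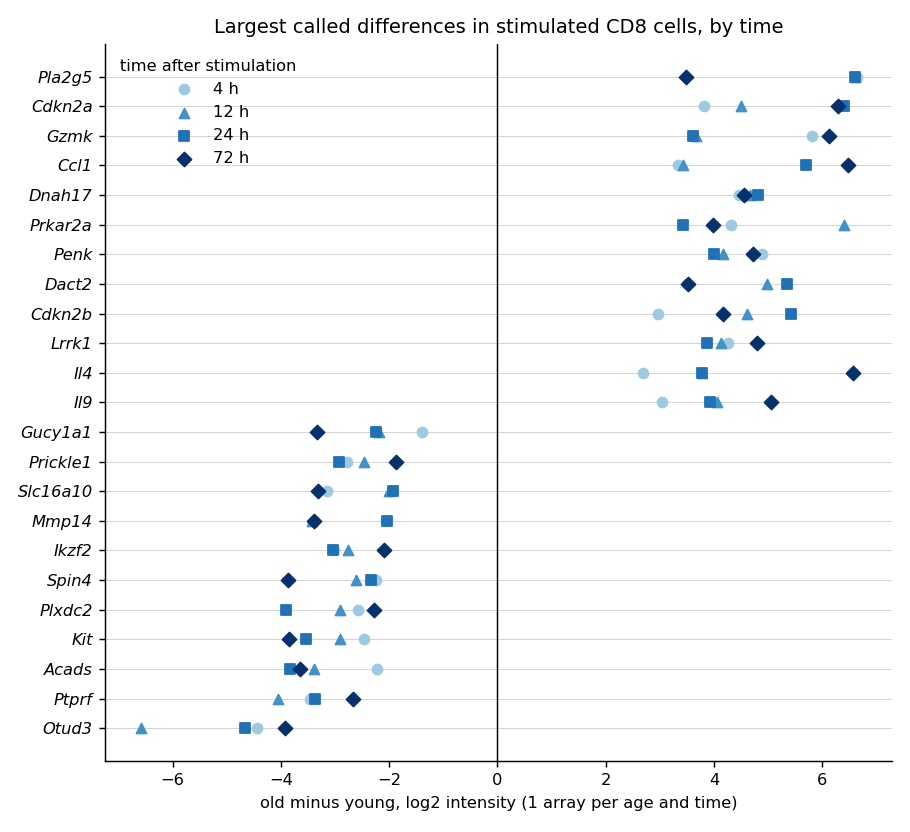
Old minus young difference (log2 intensity) at 4, 12, 24 and 72 h for 12 higher and 11 lower called genes among those with the largest mean difference, 1 point per time. Every point lies on the side of its gene's mean, with Dnah17 varying least over time and Il4, Ccl1 and Pla2g5 most among the higher genes.

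Single times, with 1 array per age and no test, differed in how many genes were at least 2-fold apart. At 12 h 1155 genes were higher and 2798 lower in old cells (7.70% and 18.7% of those measured), at 4 h 791 and 452 (5.20% and 2.97%), at 24 h 572 and 734 (3.78% and 4.85%), and at 72 h 1123 and 1434 (7.42% and 9.47%). Across 14848 genes the differences of any 2 pairs correlated with r between 0.10 (4 and 72 h) and 0.46 (12 and 24 h), a description in which genes are not independent. The difference between CD8 and CD4 cells in the age effect after stimulation passed for 1 gene by limma (0.00657% of 15214, with 697 at an unadjusted p under 0.05). Enox1, a cell-surface oxidoreductase, differed between old and young by -1.94, -1.87, -1.48 and -2.01 in CD8 cells at 4, 12, 24 and 72 h and by 2.14, 1.27, 2.31 and 1.31 in CD4 cells. The 2 effects differed by -3.58 (adjusted p = 0.0313). That call was lost without any 1 of the CD8 pairs and without the CD4 pair at 12, 24 or 72 h (adjusted p = 0.0673 to 0.254).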

How the data were processed

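RNA of sorted CD8 cells was hybridised to one-colour Agilent arrays. Intensity values were read and background-corrected with Agilent Feature Extraction 10.1.1.1 for these arrays before deposit, per the file headers. The log2 values in the authors' deposited series matrix were used only as an alternative, since its columns of stimulated CD8 cells at 4, 12 and 24 h match scans of another time. Here flagged and control spots were left out, repeat spots averaged, and log2 of the processed signal minus that of the array's 75th percentile taken. Each gene is its brightest probe, and a gene was kept if it was well above background on 4 or more of 8 arrays (15215 of 27566, of which 14848 had all 8 values). Limma 3.58.1 in R 4.3.3 fitted a mean per time and an age term (4 pairs, 3 residual degrees of freedom), with Benjamini-Hochberg adjustment over all genes kept. Resting differences come from a fit of 14 CD8 arrays, and the comparison with CD4 from 16. A gene above background on no array of an age has a bound, written "at least": the brighter age's mean against, per array, the higher of its own value and the lowest signal above background. Gene names and promoters are RefSeq's (GRCm38.p6). The members and 31 gene lists were chosen with earlier results of these data known. Named were the 12 largest called genes of each direction with one sign in all pairs, and up to 4 members of each list and direction. The fits were tested on simulated data. P-values of the age difference after stimulation measure its spread over the 4 times, with 1 pooled sample per age and time. They do not measure a spread between animals or repeat pools, and the number of arrays limits precision. A further gate marker and 1 of the largest lower genes are left out of the text.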

Additional observations from a re-analysis of the deposited data

Results flagged for a closer look

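Differences of the age effect between groups were found by a test of the difference itself for 3 genes. Between stimulated and resting CD8 cells the age difference changed by -3.11 for Asns, which makes asparagine, and by -2.90 for Klrk1, the receptor NKG2D. Both were higher in old cells at rest (3.63 and 2.71) and differed by 0.52 and -0.19 after stimulation. Between CD8 and CD4 cells after stimulation the age difference of Enox1 differed by -3.58, with all 4 CD8 pairs lower and all 4 CD4 pairs higher in old cells. CD4 and CD8 arrays after stimulation were read with different scanners and software versions, and the part of that in the Enox1 result was not tested.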

How the results depend on the processing

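Of 148 genes called between old and young stimulated CD8 cells (108 higher, 40 lower), 1 turned its direction under normexp correction. Each of the others kept it under every alternative that tested it, but several alternatives could not turn it. Leaving out a pair, as slide as a block also does, cannot turn a gene with one sign in all pairs. The filters on dim genes, the intensity trend, the fits of 16 or 28 arrays and that with no mean per time leave the difference unchanged. They alter only its p-value. The number of calls moved. It was 621 (406 higher, 215 lower) with scaling to the median of each array, 40 (33 and 7) with normexp on median signals, an alternative chosen after seeing the data because the mean signals planned are not in the files of 18 arrays, 2 (2 and 0) with no filter on dim genes, 77 (61 and 16) with the mean over a gene's probes, 240 (80 lower) with an intensity trend, 323 (217 and 106) with 28 arrays, 32 (26 and 6) with no mean per time and 67 (53 and 14) with slide as a block. Lower calls numbered 25 with quantile normalization and 74 among genes above background on all 8 arrays. Leaving out 1 pair gave 2 to 67 (higher 2 to 53, lower 0 to 14). Slide as a block is the same fit as leaving out the 12 h pair, whose arrays lay on separate slides. Its 67 calls are thus no further check. For stimulated minus resting cells there were 4 calls with median scaling, with neither Asns nor Klrk1 among them (adjusted p = 0.198 and 0.155), 11 with quantile normalization, 0 with normexp, 0 with no filter, 24 above background on all 8, 19 with the trend, 1 with slide as a block and 0 to 77 leaving out a pair or array. With the replicate block it was 0, and the numbers did not pair the resting arrays (correlations of deviations -0.32, 0.18 and -0.46). For CD8 minus CD4 there were 9 with median scaling, 0 with quantile normalization, normexp, no filter, all 8 above background or slide as a block, and 0 to 3 leaving out a pair. The trend with time had 20 with median scaling and 88 with normexp. Genes at least 2-fold apart at 4, 12, 24 and 72 h numbered 3398, 9933, 3086 and 11817 with no filter and 735, 2053, 509 and 1388 above background on all 8, against 1243, 3953, 1306 and 2557, and 9175 at 12 h with median scaling. Cd8a, at -0.04, turned to 0.25 with median scaling, 0.0780 with quantile normalization, 0.35 with normexp, 0.0324 with the mean over probes and 0.0495 with slide as a block, and lay between -0.181 and 0.0495 without 1 pair. Cd8b1 turned to -0.17 with the mean over probes, Klrk1 to 0.10 with median scaling and Slfn3 to -0.0698 with normexp. Il13 turned to -0.329 with normexp and lay between -0.236 and 0.398 without 1 pair. The causes were not tested. With 1 array per age and time, no single time can be tested.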

Other observations

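Several called genes are neighbours in RefSeq's gene order. Beside Il1rl1 with Il18r1 and Cdkn2a with Cdkn2b, Gzmk lies next to Esm1, a secreted proteoglycan gene, on chromosome 13, with differences of 4.80 and 3.95. The protease inhibitor genes Serpina3f and Serpina3g are adjacent on chromosome 12 (2.64 and 3.56), and as near-identical copies they may share probe signal. On chromosome X, Chst7 and Slc9a7 were both higher in old cells (3.46 and 1.84). Neighbours were looked for after the calls were known, and how often called genes adjoin by chance was not tested.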
